A study of Rattus norvegicus with 12 samples.

Results

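The genes described here are 41 of the 14506 genes measured in rat vascular smooth muscle cells exposed to angiotensin II (Ang II). They are a list of genes linked to ATF4, a transcription factor of stressed and amino acid-starved cells, together with the cytosolic tRNA synthetases. A gene of the list belonged if it had a probe set with exactly 1 gene symbol, and all 41 did. By role they are 9 stress factors and effectors, 10 enzymes of amino acid synthesis, 3 enzymes of one-carbon metabolism and 19 tRNA synthetase genes.

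The cells came from the aorta of Sprague-Dawley rats, were grown in 10% fetal bovine serum and were then without serum for 48 h. Total RNA was read on Affymetrix Rat Gene 1.0 ST arrays, which cover each transcript with many short probes along its length. The 12 arrays form 4 groups of 3: untreated cells, and cells given 100 nM Ang II, the peptide hormone that constricts vessels and enlarges their muscle, for 6, 12 or 24 h. The sample titles give these times, while the treatment protocol names 1, 3 and 24 h. All 4 groups had the serum depletion, and the untreated cells carry the time label of the start. Untreated cells of the same later times were not analysed here, so Ang II and time in culture cannot be told apart in any comparison with untreated cells. The labels call the arrays biological replicates without saying if each had its own animal or culture, and the p-values refer only to the array-to-array spread, which may be technical.

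ATF4 is made when a kinase that senses stress, missing amino acids or misfolded protein phosphorylates the translation factor eIF2α. Protein synthesis then slows as a whole while the Atf4 messenger is translated better. ATF4 pairs with C/EBP proteins on a composite element, the C/EBP-ATF response element, and raises genes for amino acid uptake, amino acid synthesis, folate-bound one-carbon units and tRNA charging, as well as the stress genes Ddit3, Trib3 and Chac1. Its protein level is set mostly by translation, which arrays do not measure. In vascular muscle Ang II acts mainly through the AT1 receptor and raises protein synthesis.

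To see which of the 41 genes carry that element near their start, its core, TGATGNAA, was searched on both strands in the RefSeq promoters of the GRCr8 assembly from 250 bases before to 50 bases after each gene's start. Of the 41 genes, 38 had a promoter in the table, and Aldh18a1, Gars1 and Rars1 had none. The core was present in 12 of these 38 (31.6%), against 1332 of all 33469 promoters of the same length (3.98%). Those promoters belong to 27457 genes, so some genes count more than once. The list was drawn up around ATF4, so its larger share follows in part from that choice and is no independent result. It was found in 3 of 9 stress genes, 2 of 9 amino acid synthesis genes, 0 of 3 one-carbon genes and 7 of 17 synthetase genes. The E-box CACGTG, another element of many growth-related promoters, was in 8 of 38 (21.1%), against 6.42% of all promoters, and no E-box of these genes overlapped a core. A match says only that these letters occur there. The 250 bases before the start are shown, with the core in capitals, for 5 genes that hold it there and that differ in how they changed. They are Chac1 (chr3:126795881-126796130, plus strand), Trib3 (chr3:161275534-161275783, minus strand), Nupr1 (chr1:190645902-190646151, minus strand), Got1 (chr1:252329872-252330121, minus strand) and Nars1 (chr18:60275783-60276032, minus strand), each written 5′ to 3′ in the direction of its gene.
Chac1: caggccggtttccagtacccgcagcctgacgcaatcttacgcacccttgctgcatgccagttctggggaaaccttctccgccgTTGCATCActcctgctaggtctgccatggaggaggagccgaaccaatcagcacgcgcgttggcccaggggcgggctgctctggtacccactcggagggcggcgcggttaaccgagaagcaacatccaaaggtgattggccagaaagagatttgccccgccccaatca
Trib3: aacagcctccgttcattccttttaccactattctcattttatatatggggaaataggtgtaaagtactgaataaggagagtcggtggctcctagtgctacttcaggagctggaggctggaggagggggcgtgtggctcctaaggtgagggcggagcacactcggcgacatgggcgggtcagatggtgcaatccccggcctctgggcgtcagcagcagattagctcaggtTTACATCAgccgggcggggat
Nupr1: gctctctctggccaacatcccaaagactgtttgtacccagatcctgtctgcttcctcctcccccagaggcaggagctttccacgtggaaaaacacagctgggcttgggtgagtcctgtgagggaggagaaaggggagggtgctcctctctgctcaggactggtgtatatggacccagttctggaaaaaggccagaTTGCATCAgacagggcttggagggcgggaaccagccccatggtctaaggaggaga
Got1: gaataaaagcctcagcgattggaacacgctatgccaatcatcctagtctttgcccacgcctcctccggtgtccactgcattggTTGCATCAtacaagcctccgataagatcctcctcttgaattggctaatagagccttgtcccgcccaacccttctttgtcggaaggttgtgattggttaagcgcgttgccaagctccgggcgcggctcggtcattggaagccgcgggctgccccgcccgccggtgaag
Nars1: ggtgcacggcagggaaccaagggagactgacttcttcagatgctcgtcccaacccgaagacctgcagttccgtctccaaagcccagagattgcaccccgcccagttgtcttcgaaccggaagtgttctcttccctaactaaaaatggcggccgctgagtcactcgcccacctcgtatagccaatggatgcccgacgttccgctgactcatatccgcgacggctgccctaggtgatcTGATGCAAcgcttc
The core runs from base -167 to -160 in Chac1 and in Got1, from -21 to -14 in Trib3, from -55 to -48 in Nupr1 and from -14 to -7 in Nars1, counted back from the start. It reads on the strand opposite to the gene in all of these but Nars1. These 5 genes were picked to differ in their course, so the contrast among them is no result about the core. Chac1 and Trib3 fell at 6 h, Got1 and Nars1 rose at 6 h, and Nupr1 passed the test at 24 h only. At the open base N of the core, Trib3 also differs from the others.

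Across the arrays the 4 groups kept apart. Array medians of the log2 values lay between 7.22 and 7.32, and the correlation over all rows was 0.9975 to 0.9984 within a group and 0.9868 to 0.9941 between groups, across rows that are not independent replicates. The 8 defining markers of smooth muscle had group means between 9.31 (Des) and 14.5 (Acta2) on the log2 scale. Of these, 4, 5 and 7 were higher and 2, 1 and 0 lower at 6, 12 and 24 h than in untreated cells by limma's adjusted p, with median changes of 0.13, 0.24 and 0.46, and at an unadjusted p under 0.05 0 were lower at 24 h. Over all genes, 18.6%, 13.3% and 15.3% were higher at 6, 12 and 24 h, and 17.2%, 13.3% and 14.7% lower. The 6 endothelial markers had group means between 5.02 and 6.47, and the 7 leukocyte markers between 5.22 and 6.87. Tek, the angiopoietin receptor, was the 1 endothelial marker that passed, and it was lower at all 3 times, at -0.66 ± 0.09, -0.58 ± 0.09 and -0.91 ± 0.09. The 6 fibroblast markers were not all low, with group means between 5.67 (Fap) and 13.0 (Thy1), and Lum at 11.0 to 11.8. Of these 6 markers, 3, 4 and 4 were lower at 6, 12 and 24 h, and 1 was higher at 24 h. Among them Pdgfra, a growth factor receptor, averaged 8.26 at 6 h, against 9.65 in untreated cells. Of 4 epithelial markers only Krt18, a keratin, moved: it averaged 7.28 in untreated cells, 8.77 at 6 h, 7.77 at 12 h and 7.29 at 24 h. The part of these markers in the results was not tested, and in such bulk RNA fewer cells of a type and less RNA per cell cannot be told apart.

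The tests are from 1 limma fit to all 12 arrays and 14506 genes, with p-values adjusted by the Benjamini-Hochberg method within each comparison and a threshold of 0.05. "Passed" means an adjusted p below it. Values are the deposited log2 values, and a change is a difference of group means on that scale with its standard error, from 3 arrays a group. Levels of different genes come from different probes, so only values of the same gene are compared.

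The 41 genes did not move as a block. At 6 h, 14 were higher and 8 lower than in untreated cells, with 19 not passing, while 18.6% of all genes were higher and 17.2% lower. That is 34.1% and 19.5% of the 41. At 12 h the balance was the other way, with 3 higher and 16 lower (7.32% and 39%), while 13.3% of all genes were higher and 13.3% lower. At 24 h, 10 were higher and 9 lower (24.4% and 22%), beside 15.3% and 14.7% of all genes. The 41 genes were brighter, with a median level of 10.49 in untreated replicate 1, against 8.00 for all genes. With only genes at or above the median level, 2569 were higher and 2161 lower at 6 h. At 12 h it was 1878 and 1907, and at 24 h 1775 and 2096, against 2222 and 2136 of all genes. Brighter genes thus passed more often, so the shares of all genes are no like-for-like yardstick, here or below. That filter left out Trib3, Stc2, Gpt2, Cth and Cbs. Counts of the members it kept were 18 and 8, 5 and 18, and 12 and 8. Of the calls over all genes that it kept, 54.3%, 49.6% and 45.9% were higher at 6, 12 and 24 h. The share of kept genes that passed was not computed, so these member counts have no such share beside them. The 3 comparisons share the untreated arrays. The median change of the 41 was 0.08 at 6 h, -0.08 at 12 h and 0.05 at 24 h, and that of all genes was 0.01, 0.005 and 0.05. The median of the 41 at 6 h was 0.02 without 6 h replicate 2. At 24 h it was 0.02 without 24 h replicate 1, 0.03 without untreated replicate 1 and 0.09 without 24 h replicate 2. At 24 h the count of higher genes dropped to 6 in the fit without untreated replicate 1, in that without 24 h replicate 1 and in that without 24 h replicate 3. With the arrays centred on their medians 18 were higher at 24 h, and 67.5% of the calls over all genes were then higher, against 51% as deposited.

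Changes were small. Only Chac1, Trib3, Got1 and Farsb passed with a change of at least 1.5-fold at 6 h, only Chac1 and Trib3 at 12 h, and 0 did at 24 h, beside 6.87%, 3.7% and 3.87% of all genes in either direction. The median size of a change, whatever its sign, was 0.15, 0.14 and 0.12 for the 41 genes at 6, 12 and 24 h, and 0.12, 0.10 and 0.13 for all genes. Over the 4 groups, 37 of the 41 passed the F test, as did 51.5% of all genes. The 4 that did not were Cebpg, Cbs, Kars1 and Mars1.

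**Figure D1:**
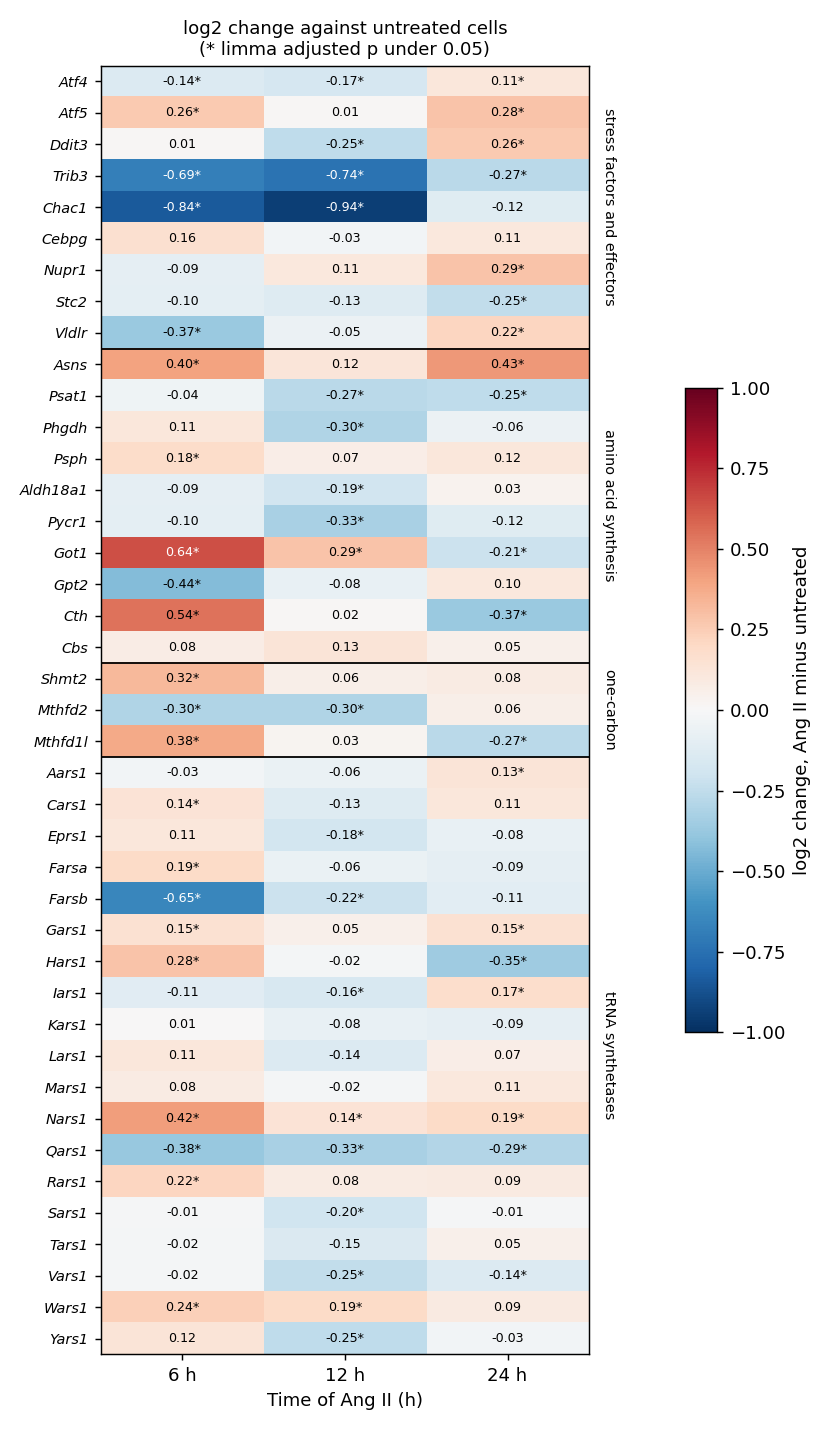
Log2 change of each of the 41 genes (rows, grouped by role) at 6, 12 and 24 h of Ang II against untreated cells (columns), with the value in each cell, red for higher and blue for lower, and a star where limma's adjusted p was under 0.05. The darkest cells are Chac1 and Trib3 at 6 and 12 h, between -0.94 and -0.69, and the 12 h column holds 16 starred falls and 3 starred rises.

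Between neighbouring times the 12 h arrays stood out. From 6 h to 12 h, 20 of the 41 genes were lower and 4 higher at 12 h, beside 13.9% and 13.1% of all genes. Those higher at 12 h were Nupr1, Vldlr, Gpt2 and Farsb. From 12 h to 24 h, 20 were higher and 4 lower at 24 h, beside 14% and 13.5% of all genes, and the 4 lower ones were Got1, Cth, Mthfd1l and Hars1. These comparisons share the 12 h arrays. The median change of the 41 genes was -0.14 at 12 h against 6 h and 0.13 at 24 h against 12 h, where all genes had medians of -2e-04 and 0.04. With median centring, 63.2% of all calls at 24 h against 12 h were higher, against 50.9% as deposited. Over the 4 groups, the 12 h mean was the lowest in 19 of the 41 (46.3%), against 22.5% of all genes, and the highest in 1 (2.44%), against 16.8%. Between 24 h and 6 h, 12 were higher and 13 lower at 24 h, beside 19.4% and 19.8% of all genes. The 6 h mean was the highest in 18 (43.9%), against 24.7% of all genes.

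**Figure D2:**
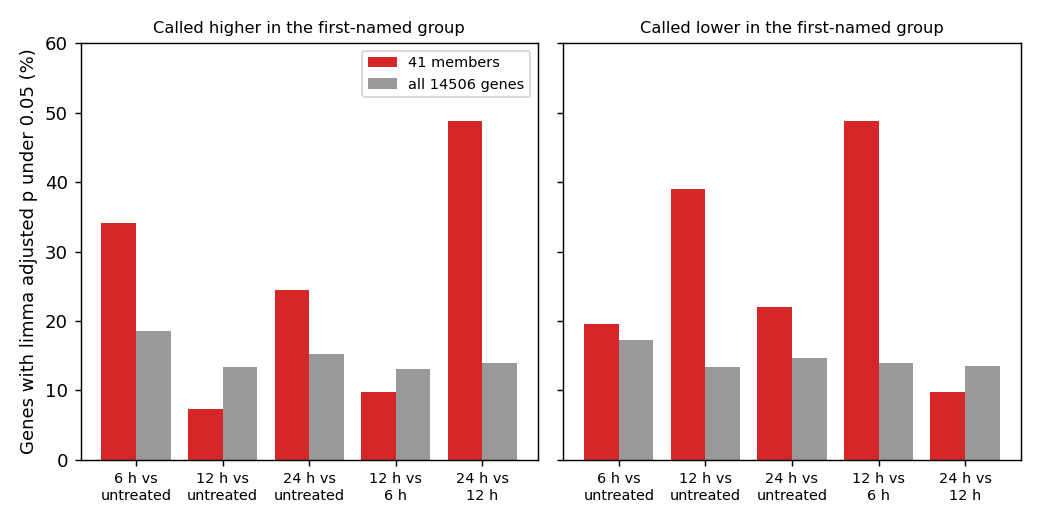
Share (%) of the 41 genes (red) and of all 14506 genes (grey) that were higher (left) or lower (right) in the first-named group at limma's adjusted p under 0.05, for 5 comparisons. The red bars reach 48.8% for genes lower at 12 h than at 6 h and for genes higher at 24 h than at 12 h, where the grey bars are at 13.9% and 14%.

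Atf4 itself changed little. Its 3 arrays read 11.56, 11.58 and 11.56 in untreated cells, 11.41, 11.45 and 11.44 at 6 h, 11.40, 11.42 and 11.38 at 12 h, and 11.71, 11.64 and 11.69 at 24 h. Every 6 h and 12 h array lay below every untreated array, and every 24 h array above them, without overlap. The change was -0.14 ± 0.04 at 6 h (limma adjusted p = 0.0112), -0.17 ± 0.04 at 12 h (adjusted p = 0.00448) and 0.11 ± 0.04 at 24 h (adjusted p = 0.0399). The rise at 24 h against untreated cells did not pass in 8 of the 12 fits that each left out 1 array. These were the fits without untreated replicate 1, 2 or 3, 6 h replicate 1 or 3, 12 h replicate 2, or 24 h replicate 1 or 3, with adjusted p = 0.0508 to 0.103. At 24 h against 12 h the difference was 0.28 ± 0.04 (adjusted p = 0.000167).

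Chac1, whose product degrades glutathione, had the largest fall of the 41 genes. It read 10.29, 10.12 and 10.36 in untreated cells, 9.48, 9.36 and 9.42 at 6 h, 9.24, 9.42 and 9.30 at 12 h, and 10.11, 10.18 and 10.13 at 24 h. All 6 h and 12 h arrays were far below the untreated ones, and the 24 h arrays overlapped them. The change was -0.84 ± 0.07 at 6 h (limma adjusted p = 1.11e-06), or 0.56 of the untreated level, and -0.94 ± 0.07 at 12 h (adjusted p = 7.29e-07). At 24 h it was -0.12 ± 0.07 (adjusted p = 0.207, and 0.05 with a change of -0.19 without untreated replicate 2), and 0.82 ± 0.07 above 12 h (adjusted p = 3.98e-06).

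Trib3 encodes a pseudokinase that binds ATF4 and holds it back. Its values were 8.26, 8.33 and 8.28 in untreated cells, 7.53, 7.70 and 7.58 at 6 h, 7.60, 7.54 and 7.51 at 12 h, and 8.06, 8.00 and 8.00 at 24 h. Every Ang II array lay below every untreated one, with the 24 h arrays in between. The change was -0.69 ± 0.05, -0.74 ± 0.05 and -0.27 ± 0.05 at 6, 12 and 24 h (limma adjusted p = 6.79e-07, 6.32e-07 and 0.00184).

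Ddit3, also called CHOP, is a factor of the death-prone phase of the stress response. It read 8.78, 8.70 and 8.82 in untreated cells, 8.74, 8.78 and 8.82 at 6 h, 8.54, 8.49 and 8.51 at 12 h, and 9.07, 8.83 and 9.20 at 24 h. The 6 h arrays lay among the untreated ones, the 12 h arrays below and the 24 h arrays above. Ddit3 changed by -0.25 ± 0.08 at 12 h (limma adjusted p = 0.0308) and 0.26 ± 0.08 at 24 h (adjusted p = 0.0236), and by 0.52 ± 0.08 between these times (adjusted p = 0.00045). The 12 h fall did not pass without untreated replicate 1 or 3 or without any 1 of the 12 h arrays (adjusted p up to 0.104). The 24 h rise did not pass without untreated replicate 1 or 2 or 24 h replicate 1 or 3 (adjusted p up to 0.0842).

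Atf5 and Nupr1 were higher at 24 h without a fall that passed at an earlier time in the main fit. Atf5, a factor translated like ATF4 under stress, had 10.49, 10.40 and 10.39 in untreated cells, 10.66, 10.69 and 10.72 at 6 h, 10.53, 10.39 and 10.40 at 12 h, and 10.70, 10.67 and 10.76 at 24 h. It was high at 6 and 24 h and overlapped the untreated arrays at 12 h, with a change of 0.26 ± 0.05 at 6 h and 0.28 ± 0.05 at 24 h (limma adjusted p = 0.00136 and 0.00119). Nupr1, a small stress-induced chromatin protein, had 13.06, 13.01 and 13.03 in untreated cells, 12.97, 12.90 and 12.95 at 6 h, 13.11, 13.17 and 13.14 at 12 h, and 13.30, 13.29 and 13.37 at 24 h. The 24 h arrays were the highest, by 0.29 ± 0.04 (adjusted p = 0.00017), while the small differences at 6 h (-0.09 ± 0.04) and 12 h (0.11 ± 0.04) did not pass. Yet every 6 h array of Nupr1 lay below every untreated array, and every 12 h array above them. In some of the alternative fits, among them that with only genes at or above the median level, its 6 h fall did pass.

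Vldlr, a lipoprotein receptor that ATF4 raises under stress, had opposite signs at 6 and 24 h. It read 12.56, 12.50 and 12.56 in untreated cells, 12.17, 12.11 and 12.23 at 6 h, 12.45, 12.49 and 12.51 at 12 h, and 12.76, 12.77 and 12.74 at 24 h. The 6 h arrays were the lowest and the 24 h arrays the highest, with no overlap with untreated cells. The change was -0.37 ± 0.04 at 6 h (limma adjusted p = 2.14e-05) and 0.22 ± 0.04 at 24 h (adjusted p = 0.00198). Of the remaining stress genes, Stc2, a secreted glycoprotein, passed at 24 h only, with -0.25 ± 0.06 (adjusted p = 0.00835), and Cebpg, a C/EBP partner of ATF4, passed at no time against untreated cells (0.16 ± 0.06, -0.03 ± 0.06 and 0.11 ± 0.06) in the fit to all arrays. It did at 6 h without 6 h replicate 1 or 24 h replicate 1 or 2, and at 24 h without 24 h replicate 2 (lowest adjusted p = 0.0236 and 0.0411).

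Counted together, 1 of the 9 stress genes was higher and 4 lower at 6 h, 0 higher and 4 lower at 12 h, and 5 higher and 2 lower at 24 h. The shares of higher genes were 11.1%, 0% and 55.6%, beside 18.6%, 13.3% and 15.3% of all genes, and the shares of lower genes 44.4%, 44.4% and 22.2%, beside 17.2%, 13.3% and 14.7%. At 24 h against 12 h, 7 were higher and 0 lower, beside 14% and 13.5% of all genes. The counts of 0 are by limma, and at an unadjusted p under 0.05 there is 1 higher at 12 h and 0 lower at 24 h against 12 h.

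**Figure D3:**
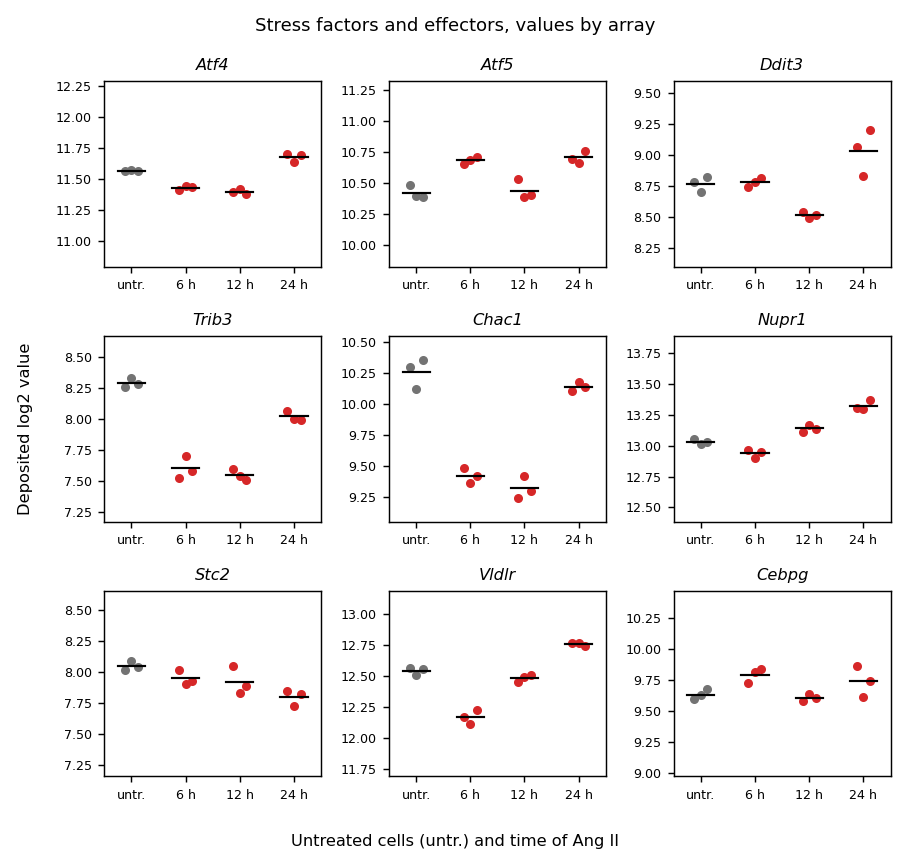
Deposited log2 values of the 9 stress genes, 1 panel a gene with an axis of the same length in each, for untreated cells (grey) and 6, 12 and 24 h of Ang II (red). Each point is an array and each bar a group mean of 3 arrays. Chac1 and Trib3 drop at 6 and 12 h, and the means of all but Stc2 are higher at 24 h than at 12 h, a difference that passed limma's test in 7 genes.

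The enzymes of amino acid synthesis split at 6 h. Asns, asparagine synthetase and a standard readout of ATF4, read 11.79, 11.71 and 11.82 in untreated cells, 12.19, 12.15 and 12.17 at 6 h, 11.90, 11.84 and 11.94 at 12 h, and 12.22, 12.20 and 12.20 at 24 h. It was high at 6 and 24 h and in between at 12 h, with changes of 0.40 ± 0.04 at 6 h and 0.43 ± 0.04 at 24 h (limma adjusted p = 1.37e-05 and 1.33e-05). The 12 h value was 0.12 ± 0.04 (adjusted p = 0.0571). Asns and Chac1, both ATF4 targets, were thus on opposite sides of untreated cells at 6 h.

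Got1, the cytosolic aspartate aminotransferase, had 9.01, 9.15 and 8.99 in untreated cells, 9.62, 9.63 and 9.84 at 6 h, 9.30, 9.38 and 9.34 at 12 h, and 8.93, 8.78 and 8.81 at 24 h. Its groups stepped down from 6 h on, and the 24 h arrays ended below the untreated ones. The change was 0.64 ± 0.07 at 6 h (limma adjusted p = 1.34e-05), 0.29 ± 0.07 at 12 h (adjusted p = 0.00834) and -0.21 ± 0.07 at 24 h (adjusted p = 0.0349). The 24 h fall did not pass without untreated replicate 1 or 2 or 24 h replicate 2 or 3 (adjusted p up to 0.132).

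Cth, which makes cysteine from cystathionine, followed a like course. It read 7.23, 7.07 and 7.28 in untreated cells, 7.65, 7.61 and 7.95 at 6 h, 7.14, 7.20 and 7.29 at 12 h, and 7.00, 6.75 and 6.72 at 24 h. The 6 h arrays were above the untreated ones, the 12 h arrays among them and the 24 h arrays below. The changes were 0.54 ± 0.10 at 6 h (limma adjusted p = 0.000916) and -0.37 ± 0.10 at 24 h (adjusted p = 0.0144). The 24 h fall did not pass without untreated replicate 3 or 24 h replicate 2 or 3 (adjusted p = 0.0543 to 0.0563). Cbs, the enzyme just before Cth in the pathway, passed at no time (0.05 to 0.13).

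Gpt2, the mitochondrial alanine aminotransferase, moved the other way. It had 7.68, 7.70 and 7.63 in untreated cells, 7.27, 7.24 and 7.20 at 6 h, 7.61, 7.65 and 7.52 at 12 h, and 7.86, 7.69 and 7.78 at 24 h. Only the 6 h arrays were apart, at -0.44 ± 0.05 (limma adjusted p = 4.47e-05).

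Phgdh and Pycr1 were lowest at 12 h. Phgdh, the first enzyme of serine synthesis, read 10.09, 10.14 and 10.12 in untreated cells, 10.20, 10.22 and 10.27 at 6 h, 9.78, 9.82 and 9.86 at 12 h, and 10.13, 10.03 and 10.02 at 24 h. The 12 h arrays lay below all others, with a change of -0.30 ± 0.04 (limma adjusted p = 0.000363). Pycr1, which makes proline in mitochondria, had 9.92, 10.02 and 9.85 in untreated cells, 9.79, 9.83 and 9.88 at 6 h, 9.58, 9.58 and 9.66 at 12 h, and 9.82, 9.77 and 9.83 at 24 h. It too was lowest at 12 h, at -0.33 ± 0.05 (adjusted p = 0.000451), and passed at neither other time. The other enzymes here, Psat1, Psph and Aldh18a1, had changes between -0.27 and 0.18. Psph, the last step of serine synthesis, was not lowest at 12 h, with a group mean of 9.40 there, against 9.33 in untreated cells, its lowest group. Psat1, the second step of serine synthesis, was lower at 12 and 24 h (-0.27 ± 0.06 and -0.25 ± 0.06), but in its dimmer second probe set the arrays of both times overlapped the untreated ones.

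Among the 10 enzymes, 4 were higher and 1 lower at 6 h, 1 higher and 4 lower at 12 h, and 1 higher and 3 lower at 24 h. That is 40%, 10% and 10% higher, beside 18.6%, 13.3% and 15.3% of all genes, and 10%, 40% and 30% lower, beside 17.2%, 13.3% and 14.7%.

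The 3 mitochondrial enzymes of one-carbon metabolism each had a different course. Shmt2, which splits serine to give glycine and a one-carbon unit, read 11.65, 11.65 and 11.70 in untreated cells, 12.00, 11.93 and 12.04 at 6 h, 11.72, 11.73 and 11.72 at 12 h, and 11.78, 11.72 and 11.76 at 24 h. It was high at 6 h, by 0.32 ± 0.04 (limma adjusted p = 5.43e-05), and close to untreated cells afterwards (0.06 ± 0.04 and 0.08 ± 0.04, not passing).

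Mthfd2, the next enzyme of that pathway, had 10.70, 10.81 and 10.76 in untreated cells, 10.46, 10.39 and 10.51 at 6 h, 10.50, 10.52 and 10.35 at 12 h, and 10.89, 10.77 and 10.79 at 24 h. Its 6 h and 12 h arrays were below the untreated ones and its 24 h arrays overlapped them. The change was -0.30 ± 0.06 at both 6 and 12 h (limma adjusted p = 0.00116 and 0.00189). Mthfd2's second probe set was also low in every 6 h and 12 h array, with 10.28 to 10.43 there, against 10.67 to 10.75 in untreated cells.

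Mthfd1l, which releases the unit as formate, read 8.59, 8.63 and 8.67 in untreated cells, 8.88, 9.10 and 9.05 at 6 h, 8.66, 8.66 and 8.65 at 12 h, and 8.44, 8.29 and 8.36 at 24 h. The 6 h arrays were above untreated cells and the 24 h arrays below. The change was 0.38 ± 0.06 at 6 h (limma adjusted p = 0.000315) and -0.27 ± 0.06 at 24 h (adjusted p = 0.0055). At 6 h Shmt2 and Mthfd1l were thus higher and Mthfd2, which acts between them, lower.

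**Figure D4:**
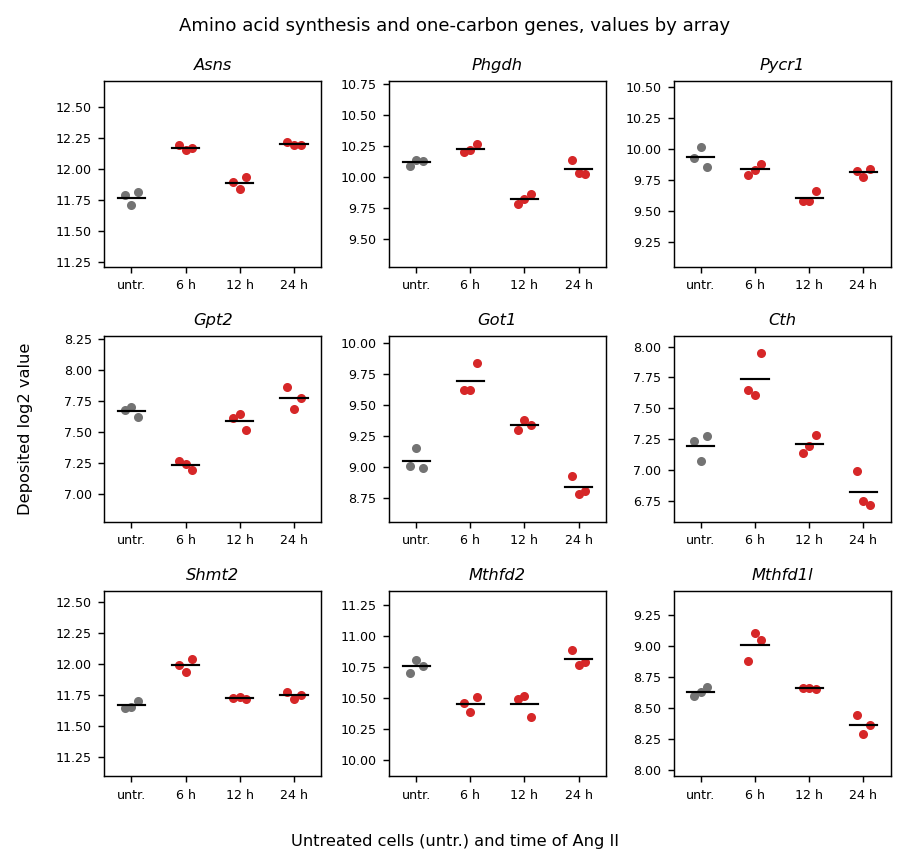
Deposited log2 values of 6 amino acid synthesis genes and the 3 one-carbon genes, 1 panel a gene with an axis of the same length in each, for untreated cells (grey) and 6, 12 and 24 h of Ang II (red). Points are arrays and bars are means of 3. Got1, Cth and Mthfd1l are highest at 6 h and lowest at 24 h, and Phgdh and Pycr1 are lowest at 12 h.

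A tRNA synthetase loads an amino acid on its tRNA, and the 19 genes cover most of the amino acids used in translation. At 6 h, 7 of them were higher and 2 lower, with 2 higher and 7 lower at 12 h, and 4 higher and 3 lower at 24 h. The higher genes were 36.8%, 10.5% and 21.1% of the 19, beside 18.6%, 13.3% and 15.3% of all genes. The lower genes were 10.5%, 36.8% and 15.8%, beside 17.2%, 13.3% and 14.7%. From 6 to 12 h, 9 were lower and 1 higher at 12 h, beside 13.9% and 13.1% of all genes. The 6 h mean was the highest of the 4 groups in 11 of the 19, and the 12 h mean the lowest in 10. The changes against untreated cells lay between -0.65 and 0.42.

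Farsb, the β subunit of phenylalanine tRNA synthetase, had the largest change of these genes. It read 10.53, 10.59 and 10.55 in untreated cells, 9.92, 9.96 and 9.83 at 6 h, 10.33, 10.34 and 10.34 at 12 h, and 10.47, 10.44 and 10.43 at 24 h. The 6 h arrays were far below, and all Ang II arrays lay under the untreated ones. The change was -0.65 ± 0.04 at 6 h (limma adjusted p = 2.29e-07), or 0.636 of the untreated level, and -0.22 ± 0.04 at 12 h (adjusted p = 0.00256). At 24 h it was -0.11 ± 0.04 (adjusted p = 0.0786). Farsa, the α subunit of the same enzyme, was higher at 6 h, at 0.19 ± 0.05 (adjusted p = 0.015), but that did not pass without untreated replicate 3 or 6 h replicate 3 (adjusted p up to 0.0577).

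Nars1, for asparagine, had the largest rise. It read 11.40, 11.35 and 11.41 in untreated cells, 11.79, 11.76 and 11.88 at 6 h, 11.48, 11.55 and 11.56 at 12 h, and 11.61, 11.53 and 11.60 at 24 h. Every Ang II array was above every untreated one, most at 6 h. The change was 0.42 ± 0.05 at 6 h (limma adjusted p = 1.59e-05), 0.14 ± 0.05 at 12 h (adjusted p = 0.0419) and 0.19 ± 0.05 at 24 h (adjusted p = 0.00733). The 12 h rise did not pass without untreated replicate 1, 2 or 3, 6 h replicate 1, 12 h replicate 2 or 3, or 24 h replicate 3 (adjusted p up to 0.141). Asns and Nars1, which make asparagine and load it on its tRNA, were both higher at 6 and 24 h.

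Qars1, for glutamine, was lower throughout. It had 10.86, 10.81 and 10.81 in untreated cells, 10.44, 10.43 and 10.47 at 6 h, 10.40, 10.57 and 10.53 at 12 h, and 10.60, 10.54 and 10.47 at 24 h. No Ang II array reached the untreated ones. The 12 h arrays overlapped those of 6 h and of 24 h, while every 24 h array was above every 6 h array. The change was -0.38 ± 0.05, -0.33 ± 0.05 and -0.29 ± 0.05 at 6, 12 and 24 h (limma adjusted p = 9.57e-05, 0.000487 and 0.00116).

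Hars1, for histidine, had opposite signs at 6 and 24 h. Its arrays read 9.74, 9.92 and 9.92 in untreated cells, 10.09, 10.13 and 10.20 at 6 h, 9.69, 9.91 and 9.91 at 12 h, and 9.59, 9.41 and 9.53 at 24 h. The 12 h arrays overlapped the untreated ones, with the 6 h arrays above and the 24 h arrays below. The change was 0.28 ± 0.07 at 6 h (limma adjusted p = 0.00968) and -0.35 ± 0.07 at 24 h (adjusted p = 0.0037). A second, dimmer probe set of Hars1 had 6.08 to 6.35 at 6 h and 5.57 to 5.81 at 24 h, against 5.82 to 6.03 in untreated cells.

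Wars1, for tryptophan, also rose early. It had 11.24, 11.30 and 11.25 in untreated cells, 11.48, 11.51 and 11.53 at 6 h, 11.40, 11.50 and 11.47 at 12 h, and 11.33, 11.34 and 11.39 at 24 h. All Ang II arrays lay above the untreated ones and came nearer to them with time. The change was 0.24 ± 0.04 at 6 h and 0.19 ± 0.04 at 12 h (limma adjusted p = 0.000575 and 0.00434), and 0.09 ± 0.04 at 24 h (adjusted p = 0.133).

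Yars1 and Vars1, for tyrosine and valine, were low at 12 h. Yars1 read 10.09, 10.10 and 10.07 in untreated cells, 10.16, 10.15 and 10.33 at 6 h, 9.84, 9.85 and 9.82 at 12 h, and 10.13, 10.01 and 10.04 at 24 h. Vars1 read 10.49, 10.52 and 10.48 in untreated cells, 10.44, 10.44 and 10.55 at 6 h, 10.25, 10.24 and 10.26 at 12 h, and 10.39, 10.37 and 10.31 at 24 h. In both genes the 12 h arrays were the lowest, by -0.25 ± 0.05 in Yars1 and -0.25 ± 0.04 in Vars1 (limma adjusted p = 0.00423 and 0.000953). Vars1 was still -0.14 ± 0.04 at 24 h (adjusted p = 0.0304), which did not pass without untreated replicate 1, 2 or 3 or 24 h replicate 2 or 3 (adjusted p up to 0.108).

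The other 12 synthetase genes had changes between -0.20 (Sars1 at 12 h) and 0.22 (Rars1 at 6 h). The Rars1 rise did not pass without 6 h replicate 3 (limma adjusted p = 0.0565). Iars1, for isoleucine, was the 1 synthetase gene lower at 12 h (-0.16 ± 0.04) and higher at 24 h (0.17 ± 0.04), by limma adjusted p = 0.0148 and 0.00901. Its 12 h fall did not pass without 12 h replicate 1 (adjusted p = 0.0603). Kars1, Lars1, Mars1 and Tars1 passed at no time against untreated cells in the fit to all arrays.

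**Figure D5:**
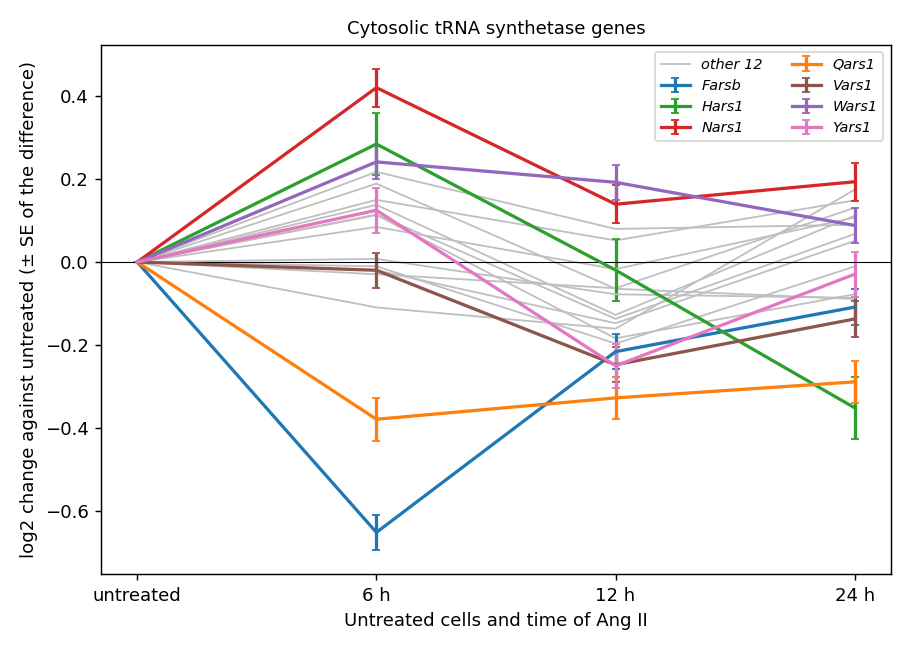
Log2 change against untreated cells (y axis, ± SE of the difference) of the 19 cytosolic tRNA synthetase genes at 6, 12 and 24 h of Ang II (x axis, evenly spaced and not to scale in time), with 7 genes in colour and 12 in grey without error bars. Farsb is lowest at 6 h (-0.65), Nars1 highest at 6 h (0.42), and most grey lines are lower at 12 h than at 6 h.

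A set of 6 of the 41 genes was opposite at 6 and 24 h, that is, passed against untreated cells at both times with different signs and passed in the difference between these times, as 3.92% of all genes did. They were Atf4 and Vldlr, lower and then higher, and Got1, Cth, Mthfd1l and Hars1, higher and then lower. Without 24 h replicate 3, 3 were left, which were Vldlr, Mthfd1l and Hars1, and with the replicate number as a block 4. Other settings raised the count to at most 8, with a trended and robust variance, where Nupr1 and Iars1 joined. Gpt2 joined with further quantile normalization or with median centring.

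Split by the promoter search, the genes with the core did not go 1 way. At 6 h, 3 of the 12 with the core were higher and 2 lower, against 9 and 6 of the 26 without it. At 12 h, 2 with the core were higher and 5 lower, against 1 and 10 of the 26. At 24 h the counts were 4 and 2 with the core, and 5 and 7 without it. The median change of the 12 genes was -0.02, -0.14 and 0.08 at 6, 12 and 24 h, and that of the 26 was 0.09, -0.08 and 0.02. Of all genes, 18.6% were higher and 17.2% lower at 6 h, 13.3% and 13.3% at 12 h, and 15.3% and 14.7% at 24 h. No test was made of these counts.

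Other genes of the pathway were taken from lists drawn up by role. Their counts stand beside 18.6% higher and 17.2% lower of all genes at 6 h, 13.3% and 13.3% at 12 h, and 15.3% and 14.7% at 24 h. Upstream of ATF4, 3 of 9 genes for the eIF2α kinases, the eIF2α phosphatase and their partners were higher and 1 lower at 6 h, 1 higher and 2 lower at 12 h, and 1 higher and 4 lower at 24 h. These counts are 33.3% and 11.1% of the 9 genes at 6 h, 11.1% and 22.2% at 12 h, and 11.1% and 44.4% at 24 h. Ppp1r15a, the GADD34 subunit that brings the phosphatase to eIF2α, read 9.38, 9.33 and 9.40 in untreated cells, 9.32, 9.33 and 9.38 at 6 h, 8.54, 8.56 and 8.63 at 12 h, and 8.88, 8.77 and 8.80 at 24 h. It overlapped untreated cells at 6 h and was clearly lower afterwards, by -0.79 ± 0.05 and -0.55 ± 0.05 (limma adjusted p = 1.4e-07 and 3.16e-06). Ppp1r15b, the constitutive subunit, was at -0.13 ± 0.05, -0.38 ± 0.05 and -0.22 ± 0.05. Its 6 h value (adjusted p = 0.047) did not pass in 8 of the 12 fits that left out 1 array, those without any 1 untreated array, 6 h replicate 2 or 3, 12 h replicate 3, or 24 h replicate 2 or 3. Eif2ak4, the GCN2 kinase that senses uncharged tRNA, was 0.14 ± 0.04 at 6 h (adjusted p = 0.0336, not passing without untreated replicate 2 or 3 or 6 h replicate 3) and -0.22 ± 0.04 at 24 h (adjusted p = 0.00263).

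Of 14 measured genes of other ATF4-linked stress responses, 4 were higher and 4 lower at 6 h, 1 higher and 6 lower at 12 h, and 3 higher and 6 lower at 24 h. In percent that is 28.6 and 28.6 at 6 h, 7.14 and 42.9 at 12 h, and 21.4 and 42.9 at 24 h. Atf3, a repressor that ATF4 induces, had the largest fall. It read 9.03, 8.38 and 8.94 in untreated cells, 7.18, 7.35 and 7.38 at 6 h, 6.94, 7.33 and 7.16 at 12 h, and 7.52, 7.25 and 7.51 at 24 h, with the untreated arrays spread but above all others. Its change was -1.48 ± 0.16, -1.64 ± 0.16 and -1.36 ± 0.16 (limma adjusted p = 1.26e-05, 9.42e-06 and 4.13e-05). Jdp2, a related repressor, changed by -0.83 ± 0.07, -0.58 ± 0.07 and -0.38 ± 0.07, and Gdf15, a secreted stress hormone, by -0.39 ± 0.06, -0.46 ± 0.06 and -0.82 ± 0.06.

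Of 10 amino acid transporters linked to ATF4, 7 were higher and 2 lower at 6 h (70% and 20%, beside 18.6% and 17.2% of all genes). At 12 h, 2 were higher and 6 lower, and at 24 h 3 were higher and 2 lower. Slc7a3, which carries arginine and lysine, had 7.53, 7.38 and 7.48 in untreated cells, 8.76, 8.78 and 8.85 at 6 h, 8.77, 8.79 and 8.76 at 12 h, and 8.44, 8.24 and 8.48 at 24 h. It stayed high at all times, by 1.33 ± 0.06, 1.31 ± 0.06 and 0.93 ± 0.06 (limma adjusted p = 1.48e-08, 3.67e-08 and 6.62e-07). Slc7a11, which takes up cystine, read 8.96, 8.72 and 8.82 in untreated cells, 9.48, 9.60 and 9.61 at 6 h, 8.29, 8.33 and 8.38 at 12 h, and 8.40, 8.27 and 8.37 at 24 h. It was above untreated cells at 6 h (0.73 ± 0.06) and below at 12 and 24 h (-0.50 ± 0.06 and -0.49 ± 0.06, adjusted p = 0.000114 and 0.00013). Slc43a1, for large neutral amino acids, was 1.01 ± 0.09 at 6 h (adjusted p = 1.94e-06). Its 12 h and 24 h values of 0.27 ± 0.09 did not pass without any 1 of the untreated arrays (adjusted p up to 0.135). Nor did the 12 h value pass without 12 h replicate 1 or 3 or 24 h replicate 3, or the 24 h value without any 1 of the 24 h arrays.

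Of 11 measured genes of mitochondrial tRNA synthetases, 1 was higher and 3 lower at 6 h, 1 higher and 0 lower at 12 h, and 0 passed at 24 h by limma, where 2 of them had an unadjusted p under 0.05, as did 1 lower gene at 12 h. At 6 h the counts are 9.09% higher and 27.3% lower, beside 18.6% and 17.2% of all genes. Yars2 was 0.50 ± 0.07 at 6 h, Sars2 -0.43 ± 0.05 and Fars2 -0.30 ± 0.08 (limma adjusted p = 0.000197, 1.54e-05 and 0.00852). The 3 measured scaffold proteins of the cytosolic synthetase complex were all higher at 6 h. Aimp2 read 10.62, 10.61 and 10.59 in untreated cells, 11.31, 11.27 and 11.33 at 6 h, 10.95, 10.94 and 10.93 at 12 h, and 10.88, 10.85 and 10.91 at 24 h. Its Ang II arrays were all above the untreated ones, at 0.70 ± 0.04, 0.33 ± 0.04 and 0.28 ± 0.04 (adjusted p = 3.4e-08, 3.14e-05 and 0.000124). Aimp1 and Eef1e1 were at 0.24 ± 0.04 and 0.30 ± 0.05 at 6 h. Later the 3 parted, with 2 higher and 1 lower at 12 h, and 1 higher and 1 lower at 24 h. The lower gene was Eef1e1 at both times, at -0.19 and -0.16.

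Of 10 measured genes of one-carbon and serine metabolism that are not among the 41, 8, 5 and 5 were lower at 6, 12 and 24 h (80%, 50% and 50%, beside 17.2%, 13.3% and 14.7% of all genes), and 0 were higher at any time by limma, also at an unadjusted p under 0.05. Tyms, thymidylate synthase of DNA synthesis, was at -0.45 ± 0.05, 0.10 ± 0.05 and -0.57 ± 0.05 (limma adjusted p = 2.56e-05, 0.213 and 6.32e-06). Shmt1, the cytosolic counterpart of Shmt2, was at -0.21 ± 0.05, -0.56 ± 0.05 and -0.23 ± 0.05, and Ahcy, which clears S-adenosylhomocysteine, at -0.39 ± 0.04, -0.29 ± 0.04 and -0.41 ± 0.04. At 6 h Shmt1 was thus lower and Shmt2 higher than in untreated cells.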

How the data were processed

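RNA of cultured rat aortic smooth muscle was measured on 12 arrays, 3 each for 6, 12 and 24 h of Ang II and for untreated cells, grouped by sample title. The values used are the log2 values the authors deposited, 1 per probe set and array, for which the submitters' processing notes name RMA and Partek. Versions, filters and how background and summary were handled were not given in the sources used here, so scale and centring rest on the values (array medians 7.22 to 7.32, SDs 2.31 to 2.36). Of 29214 rows, 15310 had exactly 1 symbol in the platform's annotation, 323 had several and 13581 were unlisted. Symbols were brought up to date through a RefSeq gene table of GRCr8. Where a gene had several probe sets (527 genes), the brightest by its mean over the 12 arrays stood for it, giving 14506 genes.

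The test was that of limma 3.58.1 (R 4.3.3), with 4 group means fitted to 12 arrays (8 residual and 3.37 prior degrees of freedom), two-sided tests, an F test over the groups and Benjamini-Hochberg adjustment over all genes. No filter on dim genes was set, and arrays carry no read depth, so their number limits the precision (median standard error of a difference 0.0667). Promoters are RefSeq's.

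The members and lists were chosen with earlier results of these data known. The genes named were Atf4, up to 6 stress and 6 amino acid synthesis genes, the 3 one-carbon genes and up to 7 synthetase genes that passed the F test with the largest changes, and up to 3 genes that passed in each pathway list. Members outside that rule are given by range and count, and any of them named was chosen after its values were seen.

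Alternatives in the fit were the 2 compared groups alone, a block for the replicate number, array weights, a trended and robust variance and a test against a minimum of 1.5-fold. Alternatives in the values were median centring, quantile normalization on top of the deposited one, only genes at or above the median level, averaging the probe sets of a gene and testing each probe set. Each array was also left out in turn. A fit without 6 h replicate 2, 12 h replicate 1 and 24 h replicate 2, the arrays of narrowest spread, was added after seeing the data. Steps were tested on simulated data. Python 3.11.15, with pandas 2.3.3 and matplotlib 3.10.9, made the tables and figures.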

Additional observations from a re-analysis of the deposited data

Results flagged for a closer look

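For 6 of the 41 genes the effects of Ang II against untreated cells had opposite signs at 6 and 24 h, and the difference between these times passed limma's test. The log2 difference of 24 h minus 6 h was 0.25 for Atf4 (adjusted p = 0.000191) and 0.58 for Vldlr (adjusted p = 4.92e-07), both lower at 6 h and higher at 24 h. It was -0.86 for Got1 (adjusted p = 1.33e-06), -0.91 for Cth (adjusted p = 1.59e-05), -0.64 for Mthfd1l (adjusted p = 4.72e-06) and -0.64 for Hars1 (adjusted p = 2.88e-05), which were higher at 6 h and lower at 24 h. Of all genes, 3.92% met the same rule. Vldlr, Mthfd1l and Hars1 met it in all 12 fits that left out 1 array. Atf4, Got1 and Cth each failed it in some of these fits, and without 24 h replicate 3 all of them did. Whether these courses belong to Ang II or to time in culture cannot be told apart here.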

How the results depend on the processing

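Among 6750 recomputed values of 295 gene changes (the 41 genes and the named pathway genes), no called change turned its sign, 369 lost the threshold and 154 gained it. Of those lost, 165 were under the test against a minimum of 1.5-fold, which asks more than a change from 0. That test left 0 higher and 1 lower at 6 h, 0 higher and 1 lower at 12 h, 0 and 0 at 24 h, 0 and 0 for 12 h against 6 h, 0 and 0 for 24 h against 12 h, and 0 opposite genes. At 12 h, 5 members were higher with the median-level filter, median centring or a trended and robust variance, against 3. The filter left out Trib3, Stc2, Gpt2, Cth and Cbs. At 24 h, 6 were higher in the 2-group fit and 18 with median centring, against 10. Median centring also moved the median change of all genes at 24 h to 0.10 and the share of higher among all calls to 67.5% from 51% (63.2% from 50.9% for 24 h against 12 h). The cause was not tested. Leaving out 1 array gave 10 to 17 higher and 8 to 8 lower at 6 h, 2 to 3 and 14 to 19 at 12 h, 6 to 11 and 6 to 9 at 24 h, 4 to 4 and 17 to 21 for 12 h against 6 h, 17 to 21 and 3 to 5 for 24 h against 12 h, 32 to 36 genes in the F test and 3 to 6 opposite genes, of 6. Same-numbered arrays of different groups had deviations that correlated by -0.103 to 0.299 (median 0.03). For arrays of different number it was -0.28 to 0.257 (median -0.02), and 7 of 12 arrays were closest to one of their own number. These values do not settle whether the numbers are pairs, and the main fit did not use them as such. With the replicate number as a block, 14 were higher and 8 lower at 6 h, 3 and 16 at 12 h, 9 and 7 at 24 h, and 4 genes were opposite. Without the 3 arrays of narrowest spread, a fit chosen after seeing the data, the counts were 13 and 9, 3 and 16, and 8 and 6, with 4 opposite. Calls near the threshold rest on 3 arrays a group, and no measure of signal over background was used here.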
